A study of Mus musculus with 12 samples.

Results

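The genes described here are 10 genes of the YAP and TEAD pathway in 3T3 cells, a mouse fibroblast line: Ctgf, Cyr61, Ankrd1, Amotl2, Ajuba, Lats2, Yap1, Wwtr1, Tead1 and Axl. They were chosen by symbol, with earlier results of these data known. All 10 were found among the 32544 rows of the count table (Ctgf and Cyr61 are older symbols of Ccn2 and Ccn1). All 10 were also among the 14279 genes with enough counts to test. Cells were untreated, or received for 24 h extracellular vesicles (EVs), small particles enclosed by membrane that cells shed. The vesicles came from MDA-MB-468 cells, an established line of human breast cancer, in 3 versions: control (shCon), knockdown of CRIPTO (shCr) or overexpression of CRIPTO (CrOE), a protein of the cell surface. Each of the 4 groups had 3 bulk RNA libraries. A vehicle control was not analysed here, so a difference from untreated cells covers all that came with the vesicles. The CrOE libraries were matched to their columns by elimination, and every CrOE value below rests on that step. The labels do not say that the libraries came from separate cultures, so p-values measure the spread between these libraries, which may be technical.

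YAP (Yap1) and its relative TAZ (Wwtr1) are coactivators without a DNA-binding domain of their own. In the nucleus they bind TEAD proteins, which recognise the DNA core CATTCC, and raise transcription of target genes such as Ctgf, Cyr61 and Ankrd1. The kinases of the Hippo pathway, MST and then LATS, phosphorylate YAP and TAZ, which keeps them in the cytoplasm or marks them for degradation. In fibroblasts the pathway is known for its response to substrate stiffness, cell spreading and serum lipids. Phosphorylation and localisation of YAP and TAZ were not measured here, and the values are mRNA levels.

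The sequence before the start site is shown for 6 of the genes, of which 4 were higher and 2 lower with CrOE EVs than with shCon EVs. RefSeq promoter windows of 300 bases (250 before the start and 50 after it, build GRCm38.p6) were matched for 8 of the 10 genes, all but Ctgf and Tead1. Each line gives the 250 bases before the start on the gene's strand, and capitals mark CATTCC or its reverse complement GGAATG. The windows lie at chr3:145649986-145650235 (Cyr61, minus strand), chr19:36119845-36120094 (Ankrd1, minus), chr14:54577662-54577911 (Ajuba, minus), chr3:57575911-57576160 (Wwtr1, minus), chr9:102717554-102717803 (Amotl2, plus) and chr7:25788734-25788983 (Axl, minus).
Cyr61: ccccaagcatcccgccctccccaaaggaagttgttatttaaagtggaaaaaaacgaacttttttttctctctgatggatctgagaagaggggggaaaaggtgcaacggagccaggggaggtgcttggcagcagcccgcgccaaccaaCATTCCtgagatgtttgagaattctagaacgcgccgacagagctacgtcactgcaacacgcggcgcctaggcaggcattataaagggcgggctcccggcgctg
Ankrd1: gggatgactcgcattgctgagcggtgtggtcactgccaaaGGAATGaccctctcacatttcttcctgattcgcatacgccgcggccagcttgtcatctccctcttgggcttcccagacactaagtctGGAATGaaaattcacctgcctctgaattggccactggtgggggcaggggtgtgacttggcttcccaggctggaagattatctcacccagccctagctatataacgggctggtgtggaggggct
Ajuba: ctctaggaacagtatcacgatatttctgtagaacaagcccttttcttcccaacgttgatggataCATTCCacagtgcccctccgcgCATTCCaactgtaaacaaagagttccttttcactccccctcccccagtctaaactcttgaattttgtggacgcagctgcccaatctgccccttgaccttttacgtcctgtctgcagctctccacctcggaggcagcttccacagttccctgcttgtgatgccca
Wwtr1: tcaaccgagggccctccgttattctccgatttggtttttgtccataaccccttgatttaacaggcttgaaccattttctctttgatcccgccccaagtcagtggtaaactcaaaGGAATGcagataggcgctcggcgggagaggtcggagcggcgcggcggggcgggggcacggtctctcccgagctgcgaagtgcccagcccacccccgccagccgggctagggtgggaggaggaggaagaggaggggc
Amotl2: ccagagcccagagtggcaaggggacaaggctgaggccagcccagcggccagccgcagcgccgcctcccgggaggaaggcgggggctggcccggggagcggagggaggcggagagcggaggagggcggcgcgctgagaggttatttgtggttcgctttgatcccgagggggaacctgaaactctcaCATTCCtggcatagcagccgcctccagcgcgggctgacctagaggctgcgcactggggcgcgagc
Axl: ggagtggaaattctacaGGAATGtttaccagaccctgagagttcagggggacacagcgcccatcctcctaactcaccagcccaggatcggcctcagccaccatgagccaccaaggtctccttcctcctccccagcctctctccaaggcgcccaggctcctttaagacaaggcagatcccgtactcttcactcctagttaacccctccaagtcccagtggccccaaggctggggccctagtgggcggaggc

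CATTCC, read on both strands, was present in the windows of 8 of 8 members. It was present in 16.6% of the 27025 genes of the RefSeq table, and in 14.7% of its 32851 windows. The match began 103 bases before the start of Cyr61, 65 before that of Amotl2 and 233 before that of Axl. Ankrd1 had matches at 210 and 123 bases, and Ajuba at 186 and 164. Yap1, itself not printed, had a match 141 bases before the start, and Wwtr1 at 136. The Lats2 match lay 4 bases after the start. No member with a window lacked the motif, so the direction of change could not be compared with and without it. Among other targets of YAP and TEAD that were listed for comparison, 3 of the 13 with a window held CATTCC. In the further lists described below it was in 4 of 6 TEAD and VGLL genes and 2 of 8 Hippo kinase genes. It was also in 2 of 8 upstream regulators, 1 of 2 Ankrd1 relatives, 0 of 4 Axl-family genes and 0 of 1 CCN gene. The AP-1 motif TGANTCA was in none of the 8 members (8.97% of all genes held it), nor was the CArG box that SRF binds (1.81%). A match in a window is a description of its letters and no measurement of binding.

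Levels below are CPM (counts of a gene relative to its library's scaled total), and changes are log2 fold changes. Library totals ranged from 25960054 to 37774020 estimated counts, and the correlation of log2 CPM within a group was 0.986 to 0.994. The shCr replicate 1 stood apart from its group on principal component 3 (42.0, against 1.47 and -5.05), and results that turn on it are given without it. Untreated replicate 2 also lay apart from its group there, though less so (-20.2, against 8.81 and -0.0354). The mitochondrial share of counts ran from 0.495% (untreated replicate 1) to 1.70% (shCr replicate 3). Fibroblast markers were present: 12 of 12 passed the low-count filter, with a summed level of 21884 to 23464 CPM in untreated, 26960.0 to 27318 in shCon-EV, 17262 to 19431 in shCr-EV and 9516 to 9935 CPM in CrOE-EV libraries. With CrOE EVs 11 of these 12 were called lower than in untreated cells, where 37.0% of all genes were. The summed level of 10 epithelial markers was 2.47 to 4.15 CPM in all libraries, and Epcam was at 0 in every one. Single markers shifted within that sum. Of the 4 that were tested, 2 were called higher and 1 lower with CrOE EVs than in untreated cells (36.7% and 37.0% of all genes). Cldn4 averaged 0 CPM untreated and 1.15 with CrOE EVs, and Krt7 1.49 and 0.572. The summed level of 8 immune markers was 48.9 to 59.5, 82.1 to 92.8, 129.5 to 193 and 4.71 to 6.34 CPM in the same order of groups, with Ptprc at no more than 7 counts per library. Lyz2 made up most of this sum in all but the CrOE-EV group (means of 46.9, 78.0, 146 and 1.25 CPM), while Cd68 averaged 5.56 to 5.64 CPM in the other groups and 3.05 CPM in the CrOE-EV group. The summed level of 6 endothelial markers was 0.625 to 1.06 CPM in untreated, 1.23 to 1.37 in shCon-EV, 1.03 to 1.64 in shCr-EV and 2.47 to 2.62 CPM in CrOE-EV libraries. The 3 that were tested were all called higher with CrOE EVs than in untreated cells, where 36.7% of all genes were. With shCon and with shCr EVs 1 of the 3 was called higher (18.0% and 18.4% of all genes). Between CrOE and shCr EVs 2 were higher and 1 lower (36.9% and 37.0%). Kdr averaged 0.136, 0.559, 0.764 and 0.403 CPM in the same order of groups. The levels of all 3 were low, with the highest mean in the CrOE-EV group at 1.18 CPM (Tek). The part of these marker shifts in the results below was not tested. In bulk RNA, fewer cells of a type and less RNA per cell cannot be told apart.

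The 10 genes did not move as a block. Against untreated cells, 4 were higher and 3 lower with shCon EVs, 2 higher and 5 lower with shCr EVs, and 4 higher and 4 lower with CrOE EVs (edgeR quasi-likelihood test, adjusted p under 0.05). Over all genes tested, 38.1% were called with shCon EVs (18.0% higher, 20.2% lower), 37.3% with shCr EVs (18.4% and 18.8%) and 73.7% with CrOE EVs (36.7% and 37.0%), so the 8 of 10 called with CrOE EVs lie near the background. The 7 of 10 in each of the other 2 comparisons lie above it, but the genes were chosen with earlier results of these data known. That excess is therefore a description and no test. With 1 library left out, the counts ranged from 5 to 9 with shCon EVs and from 6 to 9 with shCr EVs. The members are well expressed, and among the 8345 genes at least as abundant as the least abundant member the shares were 43.8%, 42.8% and 80.2%. The members' median log2 fold change was -0.01, -0.17 and -0.07 in these 3 comparisons. Their median absolute log2 fold change was 0.30, 0.23 and 0.74, against 0.23, 0.22 and 0.60 over all genes. These 3 comparisons share the untreated libraries.

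Between the EV groups, 1 of 10 members was called, and lower, in shCr against shCon EVs (background 8.73%, of which 5.22% higher and 3.51% lower). CrOE EVs differed from shCon EVs in 8 of 10, 5 higher and 3 lower (background 72.6%, 36.5% and 36.1%). They differed from shCr EVs in 9 of 10, 5 higher and 4 lower (background 73.9%, 36.9% and 37.0%). Among genes at least as abundant as the least abundant member, the shares called were 10.3%, 79.0% and 80.1% in these 3 comparisons, so the members' counts lie near the background. With at least a 2-fold change as a further condition, 0, 0 and 3 members were called against untreated cells with shCon, shCr and CrOE EVs, where 6.04%, 6.28% and 29.7% of all genes were. The counts were 1, 3 and 4 for shCr against shCon, CrOE against shCon and CrOE against shCr EVs, with 0.756%, 27.2% and 29.6% of all genes. An F-test over the 4 groups called 9 of 10 (81.3% of all genes), all but Tead1 (adjusted p = 0.0701, edgeR). DESeq2, and edgeR on genes with at least 10 counts in every library, called 10 of 10, as edgeR did without untreated replicate 2.

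**Figure D1:**
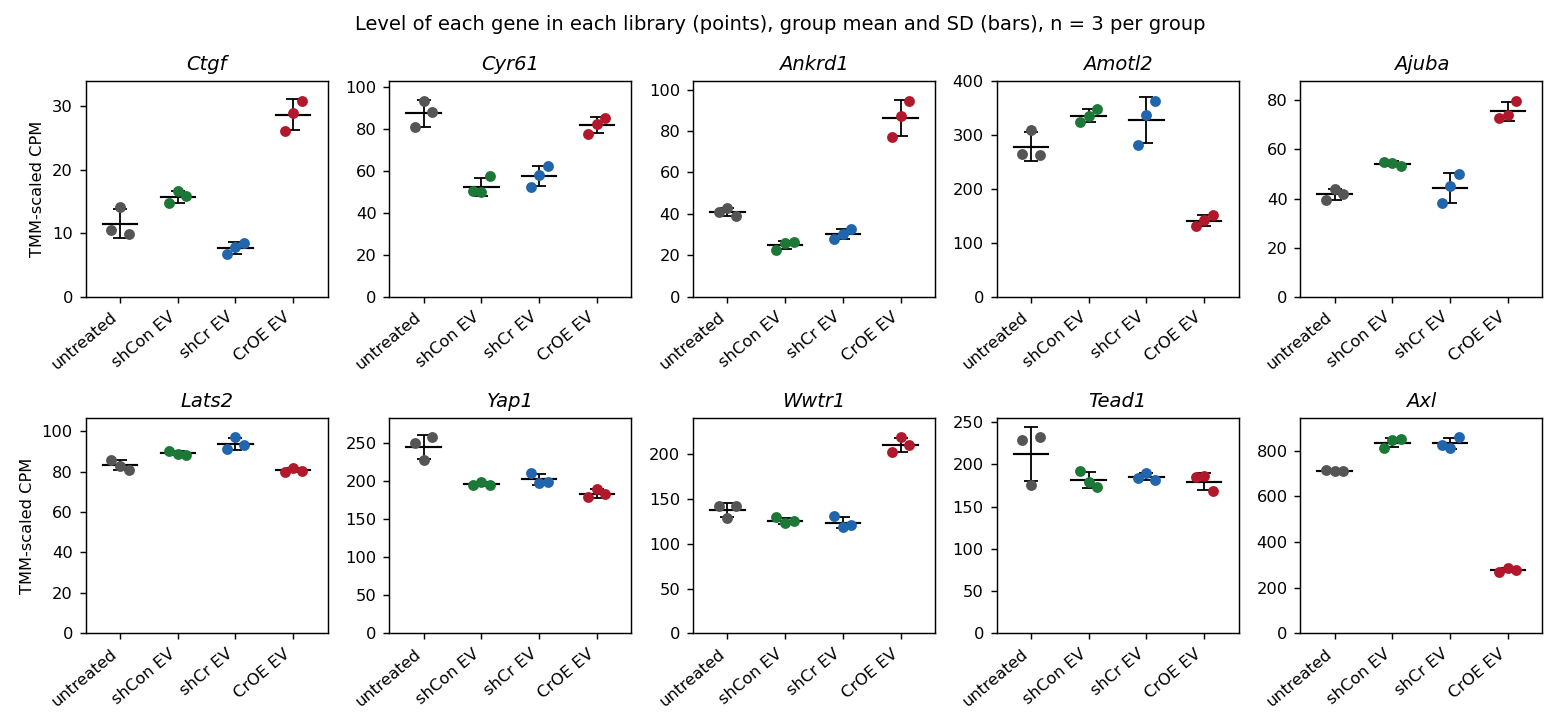
Each panel plots 1 gene, with TMM-scaled CPM on the y axis (starting at 0) and the 4 groups on the x axis; points are libraries and bars the mean and SD of 3. Ctgf is lowest with shCr EVs and highest with CrOE EVs, while Axl and Amotl2 are lowest with CrOE EVs.

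Ctgf, a secreted matricellular protein that promotes matrix production and a widely used readout of YAP, was the only member called between shCr and shCon EVs. Its level was 10.5, 14.1 and 9.93 CPM in the untreated libraries, 14.7, 16.7 and 15.8 with shCon EVs, 6.66, 7.88 and 8.43 with shCr EVs, and 26.1, 29.0 and 30.9 with CrOE EVs. No 2 groups overlapped, and the order was shCr EV, untreated, shCon EV, CrOE EV. Ctgf was lower with shCr than with shCon EVs by a log2 fold change of -1.03 (SE 0.13, adjusted p = 3.96e-04, edgeR), a ratio of 0.488. Fewer than 1 in 100 tested genes had a lower log2 fold change in that comparison (percentile 0.840). It was 3.73-fold higher with CrOE than with shCr EVs (log2 1.90, SE 0.13, adjusted p = 2.30e-08, edgeR). Against untreated cells the log2 fold changes were 0.45, -0.58 and 1.32 with shCon, shCr and CrOE EVs (SE 0.13 each). All 3 were called (adjusted p = 0.0152, 0.00413 and 7.35e-07, edgeR). The first call did not hold without shCon replicate 2 (adjusted p = 0.0606), untreated replicate 1 (0.0699) or untreated replicate 3 (0.0768). In the GENCODE annotation 665 bases of Ctgf exons lie under the antisense gene Gm15270, and whether the counting used strand is not given in the sources used here. Of the 31-base stretches of Ctgf transcripts, 19.7% also occur in other genes, read on both strands. That share includes stretches under Gm15270, so the overlap and the share are not separate reasons for doubt. The Ctgf counts are uncertain.

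Cyr61 encodes a secreted protein of the same CCN family, and its pattern differed from that of Ctgf. It measured 80.8, 93.5 and 88.0 CPM in untreated cells, 50.3, 49.8 and 57.4 with shCon EVs, 52.5, 57.9 and 62.3 with shCr EVs, and 77.6, 82.2 and 85.3 with CrOE EVs. The shCon-EV and shCr-EV libraries overlapped each other and lay below the rest, and the CrOE-EV libraries overlapped the untreated ones. Cyr61 fell with shCon EVs (log2 -0.74, SE 0.08, adjusted p = 1.48e-05, edgeR) and with shCr EVs (-0.60, SE 0.08, adjusted p = 6.81e-05). With CrOE EVs its log2 difference from untreated cells was -0.10, with a 95% interval of -0.27 to 0.07. It was higher with CrOE than with shCon EVs (0.64) and shCr EVs (0.50; adjusted p = 9.70e-06 and 7.28e-05, edgeR). The difference between shCr and shCon EVs was 0.13, with an interval of -0.04 to 0.31.

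Ankrd1, a nuclear and sarcomeric ankyrin-repeat protein and a YAP target, fell with both shCon and shCr EVs and rose with CrOE EVs. The untreated libraries held 41.1, 42.7 and 38.8 CPM, the shCon-EV libraries 22.6, 25.8 and 26.4, the shCr-EV libraries 28.0, 30.1 and 32.6, and the CrOE-EV libraries 77.2, 87.4 and 94.7. No groups overlapped. Its log2 fold change was -0.71 with shCon EVs, -0.43 with shCr EVs and 1.08 with CrOE EVs (SE 0.09 each, adjusted p = 4.43e-05, 0.00168 and 1.04e-07, edgeR). CrOE EVs gave 3.46 times the level of shCon EVs and 2.86 times that of shCr EVs (adjusted p = 1.04e-09 and 3.94e-09, edgeR). Its difference of 0.28 between shCr and shCon EVs was not called (adjusted p = 0.0755, edgeR), but was without shCr replicate 1 (0.0415).

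Ajuba, a LIM-domain protein of cell junctions that binds LATS kinases, rose with CrOE EVs. It measured 39.3, 43.9 and 41.9 CPM untreated, 55.0, 54.5 and 53.2 with shCon EVs, 38.0, 45.1 and 50.2 with shCr EVs, and 72.8, 74.0 and 79.9 with CrOE EVs. The CrOE-EV libraries were the highest, and the shCr-EV libraries overlapped the untreated ones. Ajuba was higher than in untreated cells with shCon EVs (log2 0.38, SE 0.09, adjusted p = 0.00399, edgeR) and CrOE EVs (0.86, SE 0.09, adjusted p = 1.02e-06). With shCr EVs the difference was 0.10, with an interval of -0.09 to 0.28. That difference was called without shCr replicate 1 (adjusted p = 0.0278, edgeR), its lowest library. Between shCr and shCon EVs Ajuba was -0.28 (adjusted p = 0.0605, edgeR), which passed without shCr replicate 3 (0.0125) and in DESeq2 (0.0228).

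Axl, a receptor tyrosine kinase that binds Gas6, had the highest level per length of the 10 genes and the largest fall with CrOE EVs. The untreated libraries held 716, 711 and 711 CPM, the shCon-EV libraries 813, 846 and 849.9, the shCr-EV libraries 827, 813 and 859, and the CrOE-EV libraries 267, 287 and 278. All libraries of the shCon-EV and shCr-EV groups lay above the untreated ones and overlapped each other, and the CrOE-EV libraries were far below. The fall with CrOE EVs was -1.36 on the log2 scale (SE 0.05, adjusted p = 2.77e-11, edgeR), a ratio of 0.389. Axl rose slightly with shCon EVs (0.23, SE 0.05) and shCr EVs (0.22, SE 0.05; adjusted p = 0.00168 and 0.00189, edgeR). shCr and shCon EVs differed by -0.01, with an interval of -0.11 to 0.09.

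Amotl2 encodes an angiomotin-family protein that binds YAP and holds it outside the nucleus, and is also a YAP target. It measured 264, 309 and 263 CPM untreated, 324, 335 and 349 with shCon EVs, 281, 338 and 364 with shCr EVs, and 131, 142 and 151 with CrOE EVs. The shCr-EV libraries overlapped those of the untreated and shCon-EV groups. As with Axl, the CrOE-EV libraries were lowest, at 0.507 of the untreated level (log2 -0.98, SE 0.09, adjusted p = 7.84e-07, edgeR). The rise with shCon EVs was 0.27 (adjusted p = 0.0384, edgeR). That call was lost without untreated replicate 1 or 3, without any 1 of the shCon libraries or without CrOE replicate 2, with adjusted p from 0.0529 to 0.142. The difference of 0.23 with shCr EVs was not called (adjusted p = 0.0686, edgeR), but was without untreated replicate 2 (0.0243) or shCr replicate 1 (0.00376). Amotl2 and Axl thus lay opposite to Ctgf, Ankrd1 and Ajuba with CrOE EVs, although all 5 are listed as targets of the same factors.

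The coactivators moved in opposite directions with CrOE EVs. Yap1 measured 250.2, 228 and 258 CPM untreated, 195, 199 and 195 with shCon EVs, 211, 198 and 199 with shCr EVs, and 179, 189.9 and 183 with CrOE EVs. Every EV library lay below every untreated one. An antisense gene model, Gm20416, overlaps 116 bases of Yap1 exons. The log2 fold changes were -0.32, -0.28 and -0.42 (SE 0.05 each, adjusted p = 4.14e-04, 0.00112 and 1.04e-05, edgeR), a fall to 0.749 of the untreated level with CrOE EVs. A further difference of -0.14 between CrOE and shCr EVs (adjusted p = 0.03, edgeR) was lost without untreated replicate 1 (0.0645), shCr replicate 1 (0.0615), CrOE replicate 1 (0.108) or CrOE replicate 3 (0.0843), and with no low-count filter (0.074). The difference between CrOE and shCon EVs was -0.10, with an interval of -0.21 to 0.02 (adjusted p = 0.12, edgeR), and was called in a fit of those 2 groups alone (-0.13, 0.00277) and on genes with at least 10 counts in every library (-0.13, 0.0309).

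Wwtr1 measured 142, 129 and 142 CPM untreated, 129.7, 123 and 125 with shCon EVs, 131, 119 and 121 with shCr EVs, and 203, 219 and 210.4 with CrOE EVs. The CrOE-EV libraries stood above all others, which overlapped. Wwtr1 rose with CrOE EVs by 0.62 on the log2 scale (SE 0.06, adjusted p = 4.60e-07, edgeR), or 1.53-fold. Its difference with shCr EVs was -0.15 (adjusted p = 0.0499, edgeR). This call was lost without any 1 of 10 of the 12 libraries, all but untreated replicate 2 and shCr replicate 1, with adjusted p from 0.0534 to 0.158. With shCon EVs the difference was -0.13 (adjusted p = 0.0981, edgeR), and it was called without untreated replicate 2 (0.0321) or shCr replicate 1 (0.0394).

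Tead1, a DNA-binding partner of YAP and TAZ, was not called by edgeR in the test over the 4 groups. It measured 229, 176 and 232 CPM untreated, and 168 to 192 CPM over the 9 EV libraries. Untreated replicate 2 lay within the range of the EV libraries and the other two above it. The difference with CrOE EVs was -0.24 (SE 0.09, adjusted p = 0.0259, edgeR). It was lost without untreated replicate 1 (0.115), untreated replicate 3 (0.106) or CrOE replicate 3 (0.106). The differences with shCon EVs (-0.23) and shCr EVs (-0.19) were not called (adjusted p = 0.0613 and 0.11, edgeR). Both were called without untreated replicate 2 (9.16e-04 and 0.00159), and the first also without shCr replicate 1 (0.0432) and in DESeq2 (0.0488). Differences among the EV groups were -0.05 to 0.03.

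Lats2, the kinase that phosphorylates YAP and is also induced by it, had log2 fold changes of -0.22 to 0.17 over the 6 comparisons. Its levels were 80.9 to 85.7 CPM untreated, 88.0 to 90.0 with shCon EVs, 91.1 to 96.9 with shCr EVs and 79.6 to 81.8 with CrOE EVs. The shCon-EV and shCr-EV ranges lay above the others, and the untreated and CrOE-EV ranges overlapped. It was higher with shCr EVs than in untreated cells (log2 0.17, SE 0.04, adjusted p = 0.00833, edgeR), and lower with CrOE than with shCr EVs (-0.22, SE 0.04, adjusted p = 7.05e-04) or shCon EVs (-0.14, SE 0.04, adjusted p = 0.0123). The first call was lost in a fit of those 2 groups alone (0.0838). Of the Lats2 transcript sequence 41.8% of 31-base stretches also occur in other genes. Gm49361, a gene model on the same strand, overlaps 2955 bases of Lats2 exons, so the Lats2 counts are uncertain.

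**Figure D2:**
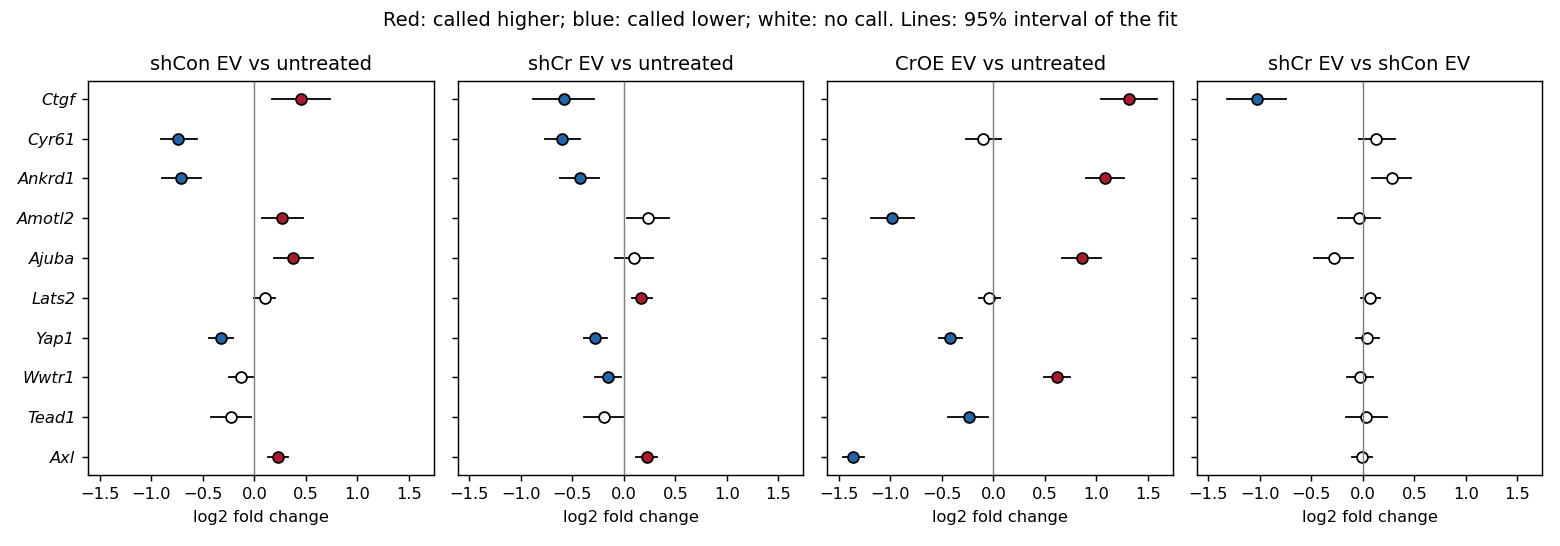
Points give the log2 fold change of each gene (x axis) in 4 comparisons (panels) with its 95% interval; red points are called higher and blue points lower at an adjusted p under 0.05, and white points are not called. With CrOE EVs Ctgf (1.32) and Ankrd1 (1.08) lie to the right of 0, and Axl (-1.36) and Amotl2 (-0.98) to the left.

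Levels were compared between genes as CPM per kilobase of the longest coding transcript. Axl was highest in every group (167, 196, 195 and 64.9 in the order untreated, shCon EV, shCr EV, CrOE EV) and Ctgf lowest (4.62, 6.31, 3.08 and 11.5). Amotl2 ranked 2 of 10 in untreated cells (64.5) and 6 with CrOE EVs (32.6), while Wwtr1 went from rank 5 (29.4) to rank 2 (44.9) and Ankrd1 from rank 7 (20.2) to rank 4 (42.8). With CrOE EVs the neighbours Wwtr1, Yap1, Ankrd1 and Cyr61 (44.9, 44.1, 42.8 and 40.5) lay close together. Their order depends on the length used, since with merged exons Yap1 was at rank 7 (19.9).

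The likeness of the members' patterns was measured as the root mean square difference of their group means, in log2 CPM, each gene centred on its mean over the 4 groups. Yap1 and Tead1 were closest (0.0640), then Lats2 and Tead1 (0.140), Amotl2 and Axl (0.161) and Ajuba and Wwtr1 (0.179). This difference is also small for genes that change little, whatever their direction. Lats2 and Tead1 are such a pair, with centred values of -0.06 and 0.16 in untreated cells and 0.12 and -0.02 with shCr EVs. Ankrd1 and Axl were farthest apart (1.33), and the CCN genes Ctgf and Cyr61 differed by 0.652. Among 11555 genes outside the member list, the pattern closest to Ctgf was that of Wisp1 (0.124), another CCN gene, and then Col5a2 (0.160), a fibrillar collagen. Col5a2 averaged 867, 1337, 789 and 2343 CPM in the order untreated, shCon EV, shCr EV, CrOE EV. Epha2, an ephrin receptor, was nearest to Cyr61 (0.0269), followed by Slc25a5 (0.0401). For Ankrd1 these were Rbpsuh-rs3 (0.0437) and Tex30 (0.0671), for Amotl2 Atrnl1 (0.0206) and Vsig10 (0.0225), and for Ajuba Esyt1 (0.0242) and Taf1c (0.0255). Nprl2 and Nbn were nearest to Lats2 (0.00507 and 0.00994), Nipa1 and Tmem261 to Yap1 (0.00891 and 0.0163), and Denr and Eif4enif1 to Wwtr1 (0.00836 and 0.0112). Impa1 and Nol7 were nearest to Tead1 (0.00851 and 0.0106), and Hspa12b and Mapkapk2 to Axl (0.0154 and 0.0170). With 4 group means a close match is easily found, so these are descriptions.

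The other genes of the pathway were described by list. Of 10 genes of the Hippo kinase cassette, 3 were higher and 4 lower with CrOE EVs than untreated cells held, which is near the background (36.7% and 37.0% of all genes). Lats1, the kinase paralogous to Lats2, rose from 52.9 to 90.2 CPM (log2 0.77, SE 0.09), and Sav1, the scaffold of the MST kinases, fell from 98.6 to 55.7 (-0.82, SE 0.05; adjusted p = 7.90e-06 and 5.19e-09, edgeR). With shCon EVs 1 of the 10 was lower (Sav1, 82.7 CPM, -0.25, adjusted p = 0.00114, edgeR), and with shCr EVs 1 was higher (Stk3, an MST kinase, 57.0 to 79.0 CPM, 0.47, adjusted p = 0.00291, edgeR), where 38.1% and 37.3% of all genes were called. These 2 counts became 3 and 6 without shCr replicate 1, and 2 and 2 without untreated replicate 2. Between shCr and shCon EVs 0 of 10 were called by edgeR, near the 8.73% of all genes. Of the 10, 3 had an unadjusted p under 0.05 and 1 was called by DESeq2. Leaving out shCr replicate 1 or shCr replicate 3 gave 1. Counts are uncertain where transcripts share 31-base stretches with other genes, which held for 25% of those of Sav1, 17.2% of Frmd6, 17% of Gadd45a and 78% of Ankrd23. Both strands were read, so these shares include antisense overlaps, 1336 bases of Sav1 with Atl1 and 337 of Gadd45a with E230016M11Rik.

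Among 10 upstream and junctional regulators, 5 rose and 5 fell with CrOE EVs (73.7% of all genes were called, and 80.2% of those at least as abundant as Ctgf). Fat4, an atypical cadherin at the top of the pathway, went from 107 to 8.56 CPM (log2 -3.64, SE 0.26, adjusted p = 3.41e-08, edgeR), and Dchs1, its binding partner, from 4.13 to 1.50 (-1.46, SE 0.22, adjusted p = 5.65e-05). With shCr EVs Fat4 was higher, at 183 CPM (0.78, SE 0.22, adjusted p = 0.0141, edgeR), a call lost in a fit of those 2 groups alone (0.0518). With shCon EVs 4 rose and 2 fell, and with shCr EVs 4 rose and 1 fell (38.1% and 37.3% of all genes were called); this count of 5 was 3 in a fit of shCr-EV and untreated libraries alone. Nf2, the tumour suppressor merlin, rose from 117 to 154 CPM with shCon EVs (0.39), and Frmd6, a FERM-domain protein, fell from 86.9 to 53.4 (-0.70; adjusted p = 2.10e-05 and 1.75e-06, edgeR). Frmd6 was 63.3 CPM with shCr EVs (-0.46 against untreated cells, adjusted p = 5.90e-05, edgeR). It was the 1 gene of this list called between shCr and shCon EVs (0.25, adjusted p = 0.024, edgeR), where 8.73% of all genes were. That call was lost without shCon replicate 1 (0.103), shCon replicate 2 (0.0856), shCon replicate 3 (0.0633) or shCr replicate 2 (0.0778). The angiomotin relatives of Amotl2, singled out after their values were seen, moved apart with CrOE EVs. Amot fell from 243 to 98.5 CPM (-1.30, SE 0.06, adjusted p = 7.19e-10, edgeR) and Amotl1 rose from 173 to 360.0 (1.05, SE 0.07, adjusted p = 2.58e-08).

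Of 7 further TEAD and VGLL genes, 5 were tested, and Vgll1 and Vgll2 had 0 counts in every library. Against untreated cells 1 rose and 3 fell with CrOE EVs, 1 rose and 1 fell with shCon EVs, and 2 rose with shCr EVs (73.7%, 38.1% and 37.3% of all genes were called). The count with shCr EVs was 0 in a fit of those 2 groups alone. Tead2 went from 85.5 to 194 CPM (log2 1.18, SE 0.06, adjusted p = 7.96e-10, edgeR) and Tead3 from 63.0 to 19.9 (-1.66, SE 0.13, adjusted p = 6.72e-08), so TEAD paralogs shifted against each other while Tead1 moved by -0.24. Tead2 was also higher with shCon EVs (0.29) and shCr EVs (0.25; adjusted p = 0.0014 and 0.00403, edgeR), the second of which was lost in a fit of those 2 groups alone (0.0573). Vgll3 and Vgll4, added after their values were seen, also fell with CrOE EVs. Vgll3 went from 171 to 95.9 CPM (-0.83, SE 0.09, adjusted p = 1.99e-06, edgeR) and Vgll4 from 54.1 to 33.1 (-0.71, SE 0.05, adjusted p = 3.97e-08). The calls that follow, in other comparisons, were smaller. Vgll3, a TEAD cofactor, was lower with shCon EVs (-0.26, adjusted p = 0.0362, edgeR), a call lost without untreated replicate 1 or 3 or any 1 of the shCon libraries (0.0703 to 0.153). Vgll4, a TEAD cofactor that competes with YAP, was higher with shCr EVs (0.16, adjusted p = 0.0257, edgeR), a call lost without untreated replicate 1 or 2 or shCr replicate 2 (0.0778 to 0.0929). Tead4 was lower with shCr than with shCon EVs (-0.38, adjusted p = 0.0399, edgeR), a call lost without any 1 of 9 libraries, all but untreated replicate 2, shCr replicate 2 and shCr replicate 3 (0.0501 to 0.144).

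Of 21 other known YAP and TEAD targets, 20 were tested, and with CrOE EVs 3 were higher and 15 lower (36.7% and 37.0% of all genes were called higher and lower). Their median log2 fold change was -0.53, against -0.07 for the 10 members and 0.01 for all genes. Thbs1, a matrix glycoprotein, fell from 2365 to 150.5 CPM (-3.97, SE 0.08, adjusted p = 4.77e-13, edgeR). Gadd45a, a stress-response gene, went the other way, from 26.6 to 200.4 CPM (2.91, SE 0.07, adjusted p = 9.00e-13). Gadd45a also rose with shCon EVs (91.9 CPM, 1.79) and shCr EVs (76.0 CPM, 1.52; adjusted p = 3.03e-09 and 5.03e-09, edgeR). With shCon EVs 4 of the 20 rose and 8 fell, Tgfb2, a growth factor of the TGF-beta family, among the latter (21.7 to 13.9 CPM, -0.64, adjusted p = 5.03e-04, edgeR). With shCr EVs 5 rose and 8 fell (18.0% and 20.2% of all genes were called higher and lower with shCon EVs, and 18.4% and 18.8% with shCr EVs). Between shCr and shCon EVs 3 were higher and 4 lower (5.22% and 3.51% of all genes), with Tgfb2 higher (0.82, adjusted p = 4.72e-04, edgeR). This count of 7 became 4 without shCon replicate 1 or shCr replicate 2, and 3 without shCon replicate 2 or shCon replicate 3.

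**Figure D3:**
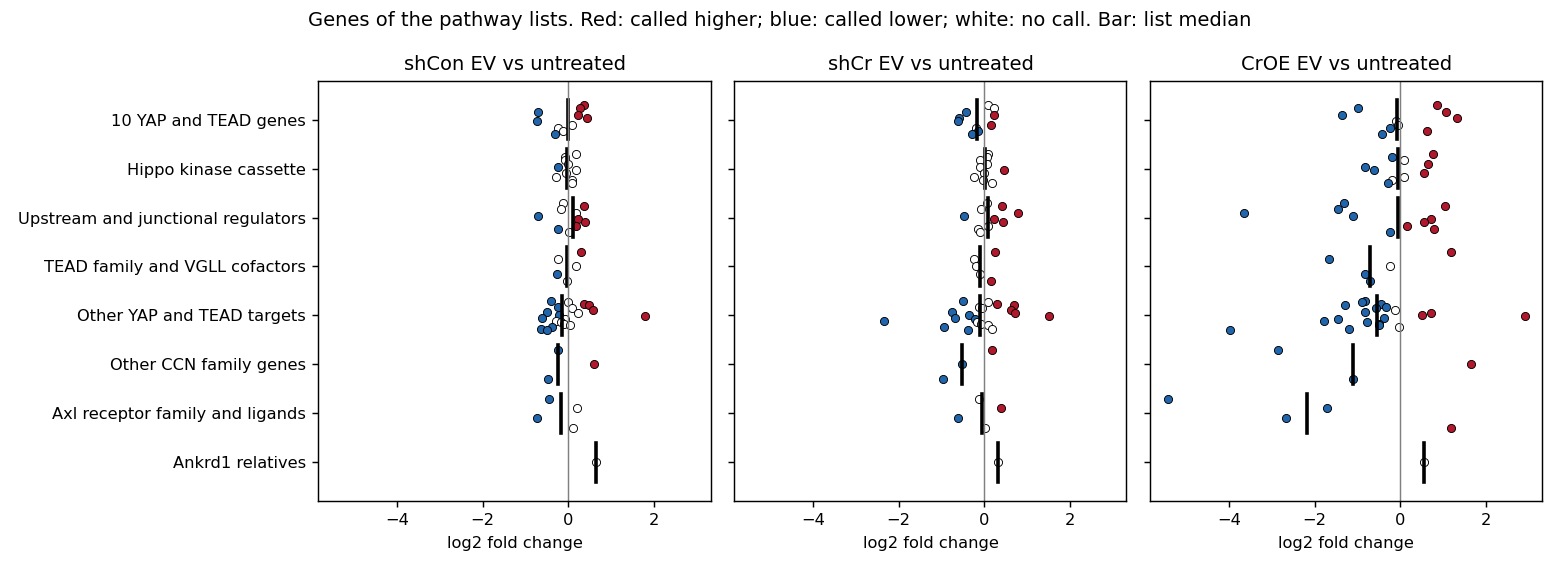
Each point is the log2 fold change of 1 tested gene of a list against untreated cells (x axis), by list, with 1 panel per EV group; red points are called higher, blue points lower, white points are not called, and black bars are list medians. In the CrOE panel the other targets have a median of -0.53, and the members spread to both sides of 0.

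Of 4 other genes of the CCN family, to which Ctgf and Cyr61 belong, 3 were tested. In each comparison with untreated cells 1 of these was higher and 2 were lower (38.1%, 37.3% and 73.7% of all genes were called with shCon, shCr and CrOE EVs). Wisp1, a matricellular protein, measured 38.9 to 45.8 CPM untreated, 63.6 to 67.3 with shCon EVs, 28.0 to 33.0 with shCr EVs and 134 to 139 with CrOE EVs, the same order of groups as Ctgf and with no overlap. It was lower with shCr than with shCon EVs by -1.12 (SE 0.07, adjusted p = 2.97e-06, edgeR). Its differences from untreated cells were 0.61, -0.51 and 1.65 with shCon, shCr and CrOE EVs (adjusted p = 2.96e-05, 1.25e-04 and 2.81e-10, edgeR). Wisp2 fell with shCon EVs (-0.48) and shCr EVs (-0.96; adjusted p = 3.42e-05 and 8.23e-08, edgeR), and was lower with shCr than with shCon EVs (-0.48, adjusted p = 2.70e-04). Nov fell from 54.8 to 7.61 CPM with CrOE EVs (-2.85, SE 0.07, adjusted p = 9.00e-13, edgeR).

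Gas6, the ligand of Axl, and Pros1, a ligand of the related receptors Tyro3 and Mertk, fell with CrOE EVs, as Axl did. Gas6 measured 250.3 to 255 CPM untreated, 181 to 193 with shCon EVs, 222 to 240.3 with shCr EVs and 5.11 to 6.82 with CrOE EVs (log2 -5.42 against untreated cells, SE 0.09, adjusted p = 7.29e-14, edgeR). Pros1 fell from 206 to 32.6 CPM (-2.66, SE 0.09, adjusted p = 1.73e-11). Both ligands also fell with shCon EVs, Pros1 by -0.72 and Gas6 by -0.44 (adjusted p = 1.95e-05 and 2.88e-04, edgeR), where Axl itself rose. With shCr EVs Pros1 fell by -0.62 (adjusted p = 5.63e-05, edgeR). Mertk, a related receptor, was higher with shCr EVs (0.40, adjusted p = 0.011, edgeR), a call lost without untreated replicate 3 (0.0525). Gas6 was higher with shCr than with shCon EVs (0.33, adjusted p = 0.0113, edgeR), a call lost without shCon replicate 1 (0.0647) or shCon replicate 3 (0.0578). Of the 4 genes of this list, 2 were lower with shCon EVs, 1 was higher and 1 lower with shCr EVs, and 1 was higher and 3 were lower with CrOE EVs (38.1%, 37.3% and 73.7% of all genes were called). Ankrd23, the relative of Ankrd1 with enough counts to test, differed by 0.66, 0.33 and 0.55 with shCon, shCr and CrOE EVs and by -0.33 between shCr and shCon EVs, none of them called (adjusted p = 0.171, 0.509, 0.176 and 0.641, edgeR). Without untreated replicate 2 the differences with shCon and CrOE EVs were called (0.0449 and 0.0383).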

How the data were processed

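Bulk RNA-seq of 12 libraries (4 groups of 3) was used. The authors deposited 1 table of unscaled values per gene symbol, taken here as estimated counts because 39.8% of values were not whole. Libraries were directional and poly(A)-selected, per the labels' protocols, and featureCounts and mm39 are named in the submitters' processing notes. The aligner, the annotation and the strand setting are not given in the sources used here. A spreadsheet had turned 27 symbols into dates, none of them a member.

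Values were rounded, and filterByExpr kept 14279 genes. With TMM scaling, edgeR 4.0.16 in R 4.3.3 (glmQLFit, glmQLFTest) fitted all 12 libraries in one model of 4 group means with 8 residual degrees of freedom. Benjamini-Hochberg adjustment ran over all genes, and a call is an adjusted p under 0.05. Levels are TMM-scaled CPM, and means carry the spread of 3 libraries. The biological coefficient of variation was 8.90%, with the spread of a gene estimated over all groups together. Replicates differed unequally between groups. The chi-square of counts between 2 replicates, averaged over genes, was 2.77 to 5.61 in shCon-EV pairs and 10.7 to 65.7 in shCr-EV pairs. It was 14.1 to 29.3 in untreated and 7.15 to 16.0 in CrOE-EV pairs. The test was checked on simulated counts with 200 genes changed 2-fold in the shCr-EV group, or with no change. That setting does not cover changes as wide as those with CrOE EVs, where 73.7% of genes were called against untreated cells. It also gave every gene and group the same spread, so it does not cover the unequal spread between groups. The test written in the design was used on the rounded values.

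Beside the 10 members, from each list the 2 genes with the largest change among calls (mean log2 CPM no lower than 1) were named per comparison (all tested genes in lists under 4), and for each member the 2 genes of most like pattern. Some list genes are counted in the totals but are not reported here by themselves. The members and lists were chosen with earlier results of these data known. Gene lengths, overlaps and shared 31-base stretches came from GENCODE M21, and promoter windows from RefSeq. Alternatives were DESeq2 1.42.0, median-of-ratios scaling, other count filters, a replicate block, each library left out, the 2 groups alone, a fold change of at least 2, and library totals.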

Additional observations from a re-analysis of the deposited data

Results flagged for a closer look

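In 5 genes the change from untreated cells went one way in 1 EV group and the other way in another, and the direct contrast of those EV groups was called (edgeR). All of these contrasts share libraries with one another. Ctgf was below untreated cells with shCr EVs and above them with shCon and CrOE EVs, with log2 differences of -1.03 for shCr against shCon EVs and 1.90 for CrOE against shCr EVs. Ankrd1 was below untreated cells with shCon and shCr EVs and above them with CrOE EVs, with differences of 1.79 (CrOE against shCon EVs) and 1.51 (CrOE against shCr EVs). Wwtr1 differed by 0.77 between CrOE and shCr EVs, where its call below untreated cells with shCr EVs was lost in 13 of 19 alternatives. Axl went the other way from Ankrd1, at -1.59 for CrOE against shCon EVs and -1.59 for CrOE against shCr EVs. Amotl2 differed by -1.25 between CrOE and shCon EVs, where its call above untreated cells with shCon EVs was not held by 6 of the 12 fits that each leave out 1 library.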

How the results depend on the processing

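Of 60 comparisons of a member, 40 kept their direction and their call under every alternative except the 2-fold threshold, and 20 changed under at least 1. Median-of-ratios scaling, and library totals (an alternative chosen after seeing the data), changed none of the 60. Of 53 comparisons of named list genes, 40 kept direction and call in the same sense. With a fold change of at least 2, 0 of 10 members were called with shCon EVs, 0 with shCr EVs and 3 with CrOE EVs against untreated cells, 3 in CrOE against shCon EVs and 4 in CrOE against shCr EVs. The counts over all genes then became 863, 897, 4245, 3884 and 4223, and 108 for shCr against shCon EVs. For that last comparison, members called rose from 1 to 2 in DESeq2 (adding Ajuba) and to 3 with a replicate block (adding Ajuba and Ankrd1), and the count over all genes fell from 1247 to 641 in a model of the 2 groups alone. Against untreated cells, such a model moved the count over all genes from 5447 to 6279 with shCon EVs. With shCr EVs it went from 5320 to 3754, and with CrOE EVs from 10524 to 10577. The cause of these shifts was not tested. With 1 library left out, members called were 5 to 9 (shCon EV against untreated), 6 to 9 (shCr EV), 7 to 8 (CrOE EV), 1 to 2 (shCr against shCon EV), 8 in every case (CrOE against shCon EV), 8 to 9 (CrOE against shCr EV) and 9 to 10 (4 groups). Over all genes they were 4250 to 6789, 4254 to 6698, 10051 to 11212, 632 to 1396, 9750 to 11067 and 10066 to 11003. For shCr against shCon EVs the counts without shCon replicate 1, 2 or 3 were 688, 632 and 666. The sign turned only in uncalled differences when 1 library was left out, with these ranges. For shCr against shCon EVs they were -0.12 to 0.06 (Amotl2), -0.07 to 1.60e-04 (Wwtr1), -0.0019 to 0.07 (Tead1), -0.03 to 0.01 (Axl) and -0.02 to 0.06 (Amotl1). For shCr EVs against untreated cells they were -0.0031 to 0.19 (Ajuba, called at the upper end) and -0.01 to 0.12 (Amot). For Tead1 they were -0.05 to 0.04 in CrOE against shCon EVs and -0.07 to 6.60e-04 in CrOE against shCr EVs. Deviations from the group means had a correlation over 0.1 in 5 of 18 same-numbered pairs of libraries (range -0.20 to 0.32). The same held for 7 of 36 pairs with different numbers (range -0.36 to 0.35). A pairing by number was thus not seen, but these values cannot exclude one. The replicate block also turned the uncalled Amotl2 difference with shCr EVs into a call (adjusted p = 0.0296) and ended that of Wwtr1 (0.0525, edgeR). Of the members, Ctgf had the fewest counts.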
